A study of Mus musculus with 6 samples.

Results

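Phosphatidylinositol transfer proteins carry phosphatidylinositol between membranes, and 6 mouse genes were sought here: Pitpna, Pitpnb, Pitpnc1, Pitpnm1, Pitpnm2 and Pitpnm3. Members were taken by gene symbol, and for each symbol the probe set would be selected on the highest mean level over the 6 arrays. Each measured symbol had 1 probe set, so this choice removed nothing. The array annotation listed 5 of the 6 genes among the 19938 genes tested, and Pitpnm1 was not analysed here. The family was picked with earlier results of these data known, because Pitpnc1 was already among the genes that were lower without miR-155. The Pitpnc1 difference is therefore a description of the gene that led to the choice.

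The samples were mast cells that grew out of C57BL/6J bone marrow over 5 weeks in 0.5 ng/ml IL-3 and 1 ng/ml SCF. One group came from wild type mice (WT) and the other from mir-155 KO mice (KO below), which lack the microRNA miR-155. Both groups were loaded overnight with anti-DNP IgE at 0.2 µg/ml and stimulated for 1 h with 20 ng/ml DNP-HSA, the antigen, before RNA was taken. Each genotype had 3 independent cultures with 1 Affymetrix Mouse Gene 1.0 ST array each. The labels give neither the number of donor mice nor their age or sex. No unstimulated cells were analysed here, so no value below is a response to antigen.

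These proteins hold 1 lipid molecule in a closed pocket and exchange phosphatidylinositol for another lipid at a second membrane. In mast cells, antigen that cross-links IgE on FcεRI activates phospholipase C, which consumes a phosphoinositide of the plasma membrane. Resupply needs phosphatidylinositol made in the endoplasmic reticulum, and transfer proteins move it to the membranes where lipid kinases act. Pitpna and Pitpnb encode small proteins of a single transfer domain. Pitpnc1 encodes RdgBβ, a small soluble member that can bind phosphatidic acid. Pitpnm2 encodes Nir3, a large multidomain relative that acts at contacts between the endoplasmic reticulum and the plasma membrane, and Pitpnm3 encodes Nir1, a related protein that lacks the transfer domain.

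The KO cells lack both strands of miR-155, which are shown because their absence is the only stated difference between the groups. The sequences are RefSeq's on build GRCm38.p6, 5′ to 3′, and capitals mark the seed (bases 2 to 8). The 5p strand lies at chr16:84714143-84714165 and the 3p strand at chr16:84714182-84714202, both on the plus strand.
mmu-miR-155-5p: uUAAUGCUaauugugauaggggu
mmu-miR-155-3p: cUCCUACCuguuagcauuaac
The array's Mir155 probe set read 2.99 ± 0.15 in WT and 2.86 ± 0.08 in KO (log2, SD, n = 3), below the array medians of all probe sets (3.67 to 3.74), so it does not check the deletion.

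The array signals carried the marks of mast cells. The 11 measured mast cell markers averaged 10.17 to 10.46 (log2) on the WT arrays and 10.37 to 10.56 on the KO arrays. The 5 neutrophil markers averaged 3.00 to 3.20 and the 3 lymphocyte markers 3.23 to 3.43 over all arrays, near the bottom of the range. The 5 macrophage markers averaged 4.19 to 4.29 in WT and 3.95 to 4.15 in KO, a mean carried by Cd68, while Csf1r, Adgre1, Mrc1 and Mertk had WT means of 2.64 to 3.51. All 5 had differences below 0, from -0.35 to -0.05, as did all 5 neutrophil markers, from -0.21 to -0.03. The part of these markers in the differences of the members was not tested. The 3 basophil markers ranged more widely, from 5.89 to 7.14 in WT and 6.04 to 6.91 in KO. Of these, Mcpt8 read 7.56, 5.23 and 7.26 in WT and 5.64, 6.18 and 7.58 in KO. The WT and KO means were 4.94 and 4.25 for Prss34 and 8.42 and 8.50 for Cd200r3. By limma, 0 of 33 markers of blood cells passed at an adjusted p under 0.05, and 3 (Mcpt4, Hdc and Itgax) had an unadjusted p under 0.05. These 3 were higher in KO, Hdc by 0.84 (adjusted p = 0.233, limma), Mcpt4 by 0.44 (adjusted p = 0.174) and Itgax by 0.39 (adjusted p = 0.382). Of the 11 mast cell markers, 4 had differences below 0. The 3 dendritic cell markers averaged 3.40 to 3.73 and the 3 of megakaryocytes and erythroid cells 5.66 to 5.97, the latter carried by Itga2b, with Pf4 and Klf1 near the bottom of the range. KO replicate 1 stood apart from the other arrays on the first principal component, at 32.03 against 5.36 and 7.31 for the other KO arrays and -19.5 to -10.6 for the WT arrays.

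Among the 5 measured members, Pitpnc1 fell in the KO cells and the others did not pass the test. That is 1 of 5 members at an adjusted p under 0.05 (limma over all 19938 genes), where 0.823% of all genes passed in either direction and 0.316% were lower in KO. Since Pitpnc1 prompted the choice of the family, this count is read against nothing. In 3 members (Pitpnb, Pitpnc1 and Pitpnm2) all KO arrays lay below all WT arrays. Groups lay apart in this way, in either direction, for 17.2% of all genes. On the lower side they did so for 9.05% of all genes. Of the 7818 genes with a mean level of at least 5 it was 13.7%, a set without Pitpnm3 (mean 3.64). Since Pitpnc1 is among the 3, this count too is read against nothing.

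**Figure D1:**
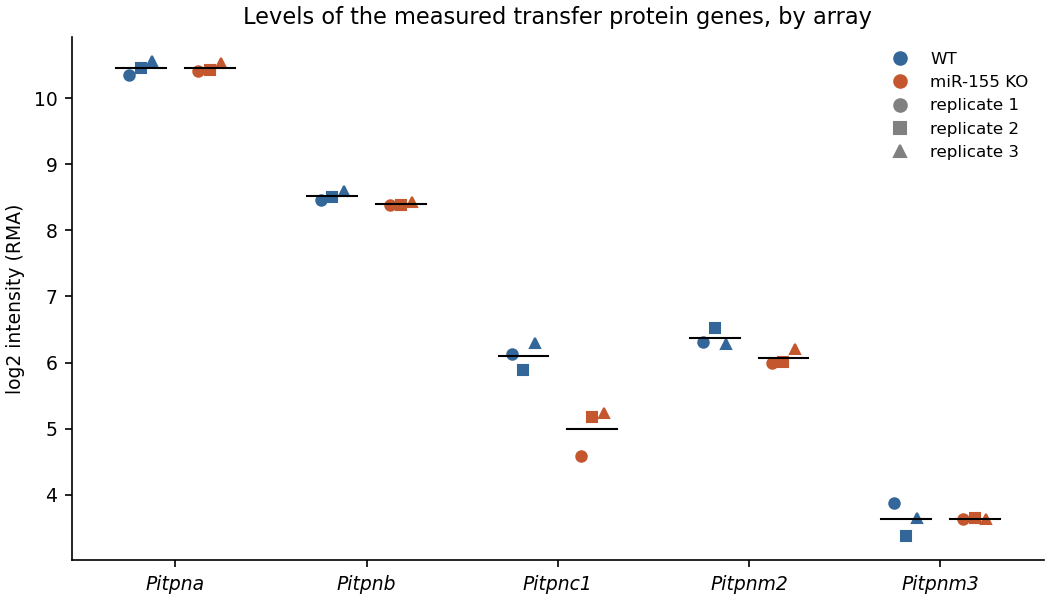
Level of each measured member (log2 intensity, vertical axis) on the 6 arrays, with WT in blue, KO in orange, marker shape for the replicate number and a black line at the group mean. The KO points of Pitpnc1 lie between 4.59 and 5.23, all below the WT points at 5.88 to 6.29.

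Of the single-domain carriers, Pitpna, which encodes the alpha form, was read at high signal. It read 10.35, 10.45 and 10.57 in WT replicates 1, 2 and 3 and 10.40, 10.43 and 10.53 in KO replicates 1, 2 and 3 (log2). The groups overlapped, with the KO arrays inside the WT range. The difference, KO minus WT, was -0.00 (95% interval -0.21 to 0.20, adjusted p = 0.996, limma). The interval leaves room for a change of about 0.2 log2 units either way.

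Pitpnb, the beta form, which is found at the Golgi and endoplasmic reticulum, differed little. It read 8.46, 8.50 and 8.59 in WT and 8.38, 8.38 and 8.43 in KO, in replicate order. The KO arrays were all lower, but the closest arrays of the groups were only 0.026 apart. The difference was -0.12 (95% interval -0.30 to 0.06, adjusted p = 0.631, limma), which did not pass.

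Pitpnc1 read 6.13, 5.88 and 6.29 in WT replicates 1, 2 and 3 and 4.59, 5.18 and 5.23 in KO replicates 1, 2 and 3. Every KO array was below every WT array, and KO replicate 1 was the lowest. The gap between the nearest arrays of the groups was 0.65, which was wider than the 0.41 spanned by the WT arrays and close to the 0.64 spanned by the KO arrays. Group means were 6.10 ± 0.21 in WT and 5.00 ± 0.35 in KO (SD, n = 3). The difference was -1.10 (SE 0.18, 95% interval -1.50 to -0.70, adjusted p = 0.0354, limma), a level 2.14-fold lower. It was the 7th largest decrease of the 63 genes that fell. In these bulk RNA samples, fewer cells that express the gene and less of its RNA per cell cannot be told apart.

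The call for Pitpnc1 depended on single arrays. Leaving out 1 array could not turn its direction, because every KO array was below every WT array. Without KO replicate 1, the array that stood apart, the difference was -0.90 (adjusted p = 0.0301), and without KO replicate 2 it was -1.19 (adjusted p = 0.0495). It missed the threshold without WT replicate 1 (-1.09, adjusted p = 0.140), WT replicate 2 (-1.21, adjusted p = 0.0772), WT replicate 3 (adjusted p = 0.129) or KO replicate 3 (-1.21, adjusted p = 0.0610). It also missed it when all 35557 probe sets were tested (adjusted p = 0.168) and in an ordinary test without moderated variances (adjusted p = 0.362). In each of these fits the 95% interval of the difference stayed below 0.

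**Figure D2:**
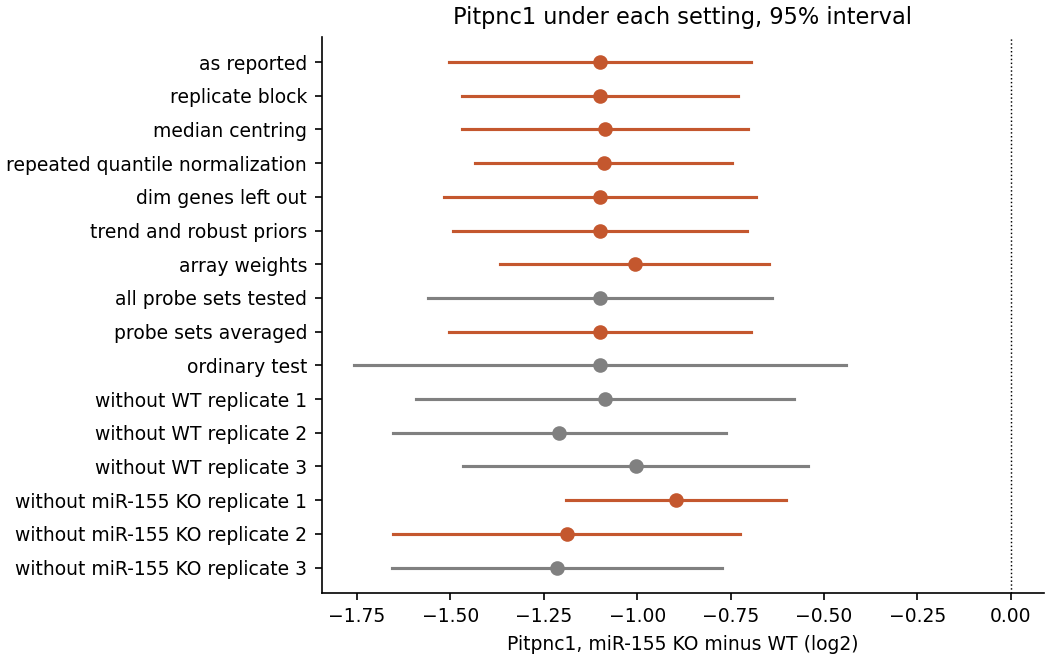
Difference of Pitpnc1 between genotypes (log2, horizontal axis) as reported and under each of the 15 alternatives, with bars for the 95% interval. Orange marks an adjusted p under 0.05 and grey one above it, and all values lie between -1.21 and -0.90.

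Pitpnm2, the large contact site protein, was also lower on every KO array without passing the test. It read 6.30, 6.52 and 6.28 in WT and 6.00, 6.01 and 6.21 in KO, in replicate order. The groups were 0.066 apart at their closest, between KO replicate 3 and WT replicate 3. The difference was -0.29 (SE 0.10, adjusted p = 0.258, limma). The 95% interval for this gene alone ran from -0.53 to -0.06, and it reached across 0 without WT replicate 2, KO replicate 1 or KO replicate 2.

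Pitpnm3 read 3.88, 3.37 and 3.65 in WT and 3.63, 3.65 and 3.64 in KO. These values lie at the level of the array medians over all probe sets, so signal and background cannot be told apart in either genotype. The WT arrays spanned 0.51 and the KO arrays 0.016, and the groups overlapped. The difference was 0.00 (95% interval -0.28 to 0.29, adjusted p = 0.995, limma).

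**Figure D3:**
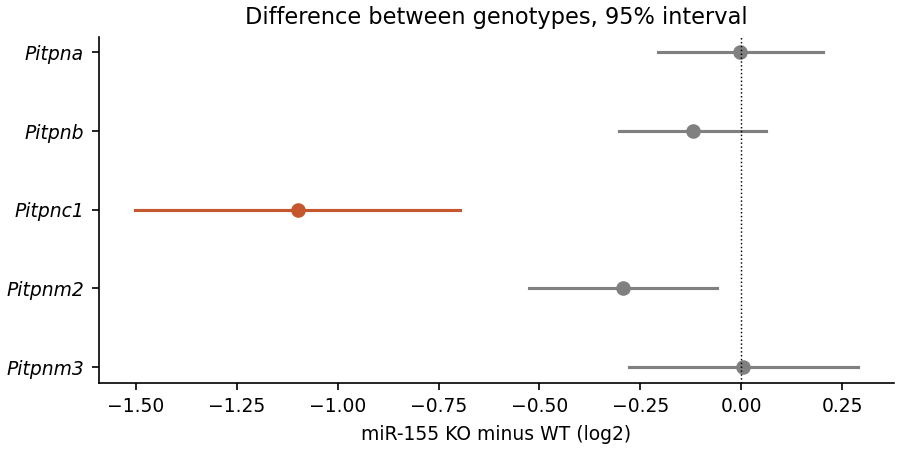
Difference between genotypes for each measured member (KO minus WT, log2, horizontal axis), with bars for the 95% interval of each gene alone. Pitpnc1 (orange, adjusted p under 0.05) lies at -1.10, and the intervals of Pitpna, Pitpnb and Pitpnm3 include 0 while that of Pitpnm2 ends at -0.06.

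Of the enzymes and partners around the transfer proteins, 1 passed the test over all genes, and differences went both ways. Over 6 lists grouped by role, 116 of 120 genes were measured, of which 0 rose, 1 fell and 115 did not pass (limma). The median difference was -0.02, beside -0.01 over all 19938 genes. At an unadjusted p under 0.05 there were 27 genes of the 116, beside 2531 of all 19938 (12.7%). The groups lay apart in 31 of the 116, 23 of them lower in KO, beside the 17.2% of all genes in either direction and 9.05% on the lower side. Of the 116, 77 had a mean level of at least 5, beside 7818 of all 19938. Among those 7818 genes the share on the lower side was 13.7%.

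Genes that make phosphatidylinositol or handle its precursor phosphatidic acid gave 0 passes among 17 measured (limma, 2 at an unadjusted p under 0.05), with a median of -0.07 and differences from -0.43 to 0.18. Cdipt, the synthase that joins inositol to the lipid backbone, read 8.66, 8.66 and 8.77 in WT and 8.42, 8.47 and 8.61 in KO, where the groups lay apart by a small gap. Its difference was -0.20 (adjusted p = 0.394, limma). The diacylglycerol kinases Dgke and Dgkd, which make phosphatidic acid, differed by -0.43 (adjusted p = 0.0935) and -0.37 (adjusted p = 0.105). These 2 had the lowest p of the list.

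Among 17 genes for phosphoinositide kinases and related proteins 0 passed (limma, 4 at an unadjusted p under 0.05). The median was 0.01, with differences from -0.25 to 0.47. Class I PI3K genes are not in this list. The groups lay apart on the lower side in 3 of the 17 and on the higher side in 2. Over all genes they lay apart in either direction for 17.2% and on the lower side for 9.05%. Pi4ka, the plasma membrane 4-kinase, differed by -0.02 (95% interval -0.20 to 0.16, adjusted p = 0.962, limma). Pip5k1a, which makes the substrate of phospholipase C, read 7.90, 8.06 and 7.80 in WT and 8.57, 8.30 and 8.28 in KO. Its groups did not overlap, and the difference was 0.47 (adjusted p = 0.103). Pi4k2a and Pip5k1b differed by 0.34 (adjusted p = 0.246) and 0.28 (adjusted p = 0.386).

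Of 15 phospholipase C genes 0 passed (limma, 3 at an unadjusted p under 0.05), and their median was -0.01. Plcg1 and Plcg2, the isoforms switched on by tyrosine kinases below FcεRI, were lower on all KO arrays. Plcg1 read 8.62, 8.46 and 8.44 in WT and 8.22, 8.29 and 8.35 in KO, a difference of -0.22 (adjusted p = 0.335, limma). Plcg2 read 6.86, 6.85 and 6.83 in WT and 6.50, 6.48 and 6.70 in KO, a difference of -0.29 (adjusted p = 0.201). Plcb1, an isoform driven by G proteins, differed by -0.28 (adjusted p = 0.215) at a WT mean of 4.87.

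Of 23 phosphoinositide phosphatases 0 passed (limma, 4 at an unadjusted p under 0.05, median -0.03). Inpp5b and Mtmr4 differed by -0.36 (adjusted p = 0.146) and -0.34 (adjusted p = 0.204) and Inpp5a, which removes a phosphate from soluble inositol trisphosphate, by 0.34 (adjusted p = 0.233, limma).

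Of 36 measured genes for other lipid transfer and membrane contact proteins 1 fell, 0 rose and 35 did not pass. At an unadjusted p under 0.05 (limma) there were 12 of the 36, beside 12.7% of all genes. Of the 36, 23 had a mean level of at least 5, beside 7818 of all 19938, and the share among such genes was not computed. Differences ran from -0.75 to 0.76 around a median of -0.04. The gene that fell was Sec14l1, of the Sec14-like family, another fold of lipid-binding proteins. It read 8.82, 9.07 and 9.15 in WT and 8.29, 8.50 and 8.35 in KO. The difference was -0.63 (SE 0.11, adjusted p = 0.0443, limma), and leaving out any 1 of the 6 arrays ended the call (adjusted p between 0.0538 and 0.139). Osbpl5, an oxysterol-binding protein relative that exchanges lipids between the endoplasmic reticulum and the plasma membrane, read 6.96, 6.95 and 6.97 in WT and 5.88, 6.40 and 6.35 in KO. Its difference of -0.75 did not pass (adjusted p = 0.0504). It did pass without KO replicate 1 (-0.58, adjusted p = 0.0367) or KO replicate 2 (-0.85, adjusted p = 0.0495). It also passed with median centring, quantile normalization, dim genes left out, other priors or array weights (limma, adjusted p from 0.0315 to 0.0432). Osbpl5 did not pass with the replicate block, averaged probe sets, all probe sets or the ordinary test. Nor did it pass without KO replicate 3 or any 1 of the WT arrays. Osbp, the founding member of that family, which binds the same anchors as the large transfer proteins, differed by 0.37 (adjusted p = 0.0935). Those anchors, Vapa and Vapb of the endoplasmic reticulum, differed by 0.27 (adjusted p = 0.357) and 0.06 (adjusted p = 0.885).

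Among 8 genes for reported binding partners of the Pitpnc1 protein 0 passed (limma, 2 at an unadjusted p under 0.05, median 0.05). Agtrap, a membrane protein that binds it, read 6.34, 6.83 and 6.71 in WT and 6.02, 6.34 and 6.05 in KO. The groups were almost touching, between WT replicate 1 and KO replicate 2, and the difference was -0.49 (adjusted p = 0.174, limma). The 14-3-3 genes Ywhag and Sfn differed by 0.35 (adjusted p = 0.235) and 0.20 (adjusted p = 0.546).

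**Figure D4:**
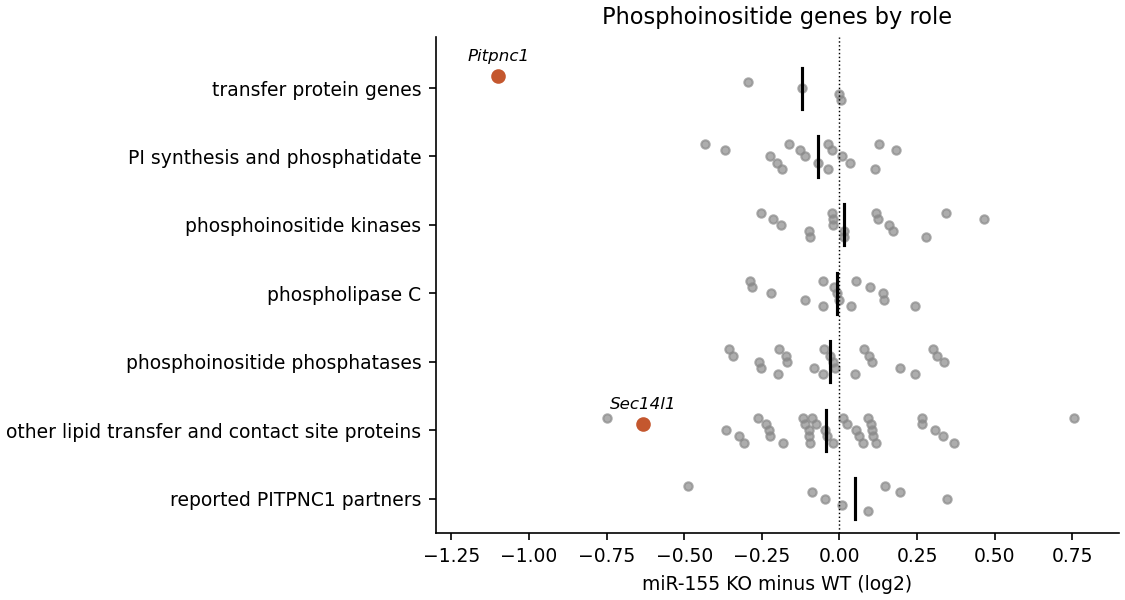
Differences between genotypes (KO minus WT, log2, horizontal axis) of the 5 measured transfer protein genes and of 6 lists by role, 1 point per gene and a black line at each list's median. Orange points passed at an adjusted p under 0.05: Pitpnc1 at -1.10 and Sec14l1 at -0.63.

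The genes beside Pitpnc1 on its chromosome had smaller differences, in both directions. Of the 5 protein-coding genes on either side in the RefSeq order, all 10 were measured, 0 passed (limma, 3 at an unadjusted p under 0.05) and the differences ran from -0.37 to 0.38, with a median of 0.09. The share at an unadjusted p under 0.05 over all genes was 12.7%. Those 3 were Nol11, a nucleolar protein, at 0.31 (adjusted p = 0.290), Psmd12, a proteasome subunit, at 0.38 (adjusted p = 0.202), and Bptf, a chromatin remodelling factor, at -0.37 (adjusted p = 0.277). The groups of Bptf lay apart on the lower side and those of Psmd12 on the higher side. Over all genes, groups lay apart in either direction for 17.2%.

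Other genes followed the array pattern of Pitpnc1 closely. Likeness was the Pearson correlation over the 6 arrays, among 957 other genes with a mean of at least 5 and an SD of at least 0.3. The values, and the adjusted p of the genes picked, are given as a description. Pitpnc1 splits by genotype, so a choice by likeness to it favours genes that differ by genotype. The arrays share 2 genotypes, and 1 KO array stood apart. The most alike were Spns3, a sphingolipid transporter relative (r = 0.996), Mapre2, which binds the growing ends of microtubules (r = 0.995), and Map11, a microtubule-associated protein (r = 0.994). Mapre2 fell by 0.84 (adjusted p = 0.0269, limma), while Spns3 and Map11 differed by -0.72 (adjusted p = 0.0560) and -0.60 (adjusted p = 0.0669). The most opposite were Pcyt1a, the rate-limiting enzyme of phosphatidylcholine synthesis (r = -0.994), Emc9, a subunit of a complex that inserts membrane proteins (r = -0.991), and Etv6, a transcriptional repressor (r = -0.990). Pcyt1a read 9.44, 9.59 and 9.25 in WT and 10.84, 10.35 and 10.40 in KO, a rise of 1.10 (adjusted p = 0.0170, limma). Emc9 rose by 1.05 (adjusted p = 0.0354), and Etv6 differed by 0.96 (adjusted p = 0.0572). In all 6 genes KO replicate 1 was the KO array farthest from the WT mean. This is also the array that stood apart over all genes, and its part in the likeness was not tested.

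**Figure D5:**
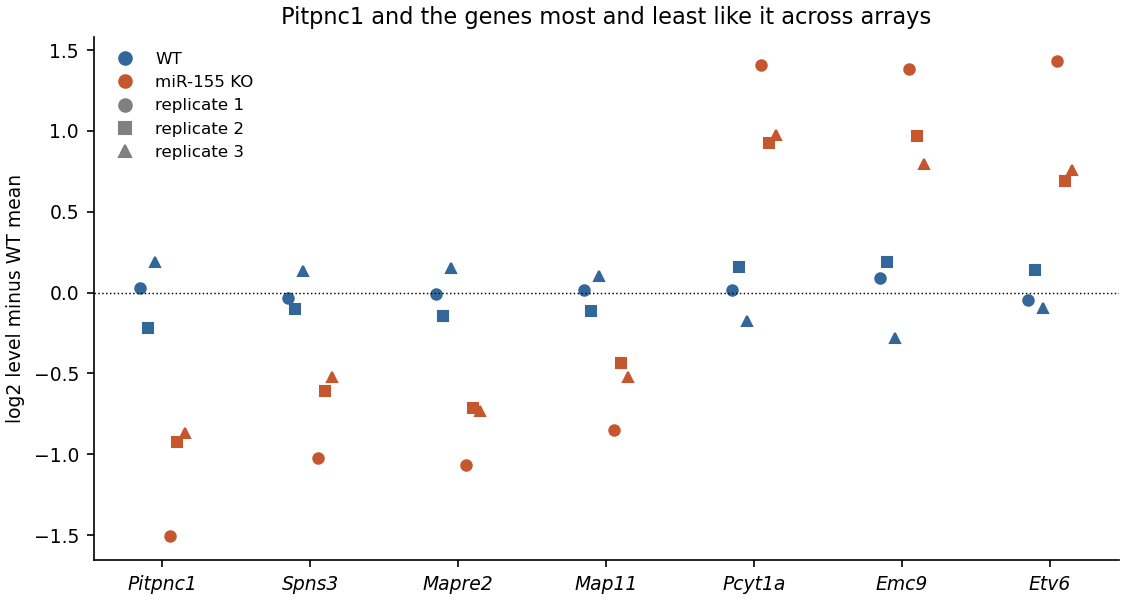
Level minus the WT mean (log2, vertical axis) on each array for Pitpnc1, the 3 genes most like it and the 3 most opposite, with WT in blue, KO in orange and marker shape for the replicate number. KO replicate 1 (orange circles) lies farthest from 0 in each gene, at 4.59 against a WT mean of 6.10 for Pitpnc1.

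Among the members themselves, likeness over the 6 arrays was highest between Pitpnc1 and Pitpnb (r = 0.86), then Pitpnc1 and Pitpnm2 (r = 0.75) and Pitpnb and Pitpnm2 (r = 0.70). Pitpna had r = 0.58 with Pitpnb and r = 0.22 with Pitpnc1, and Pitpnm3 had values from -0.37 to 0.12. These are descriptions over arrays that share the same genotypes and the same array apart.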

How the data were processed

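Total RNA of 6 cultures was hybridised to Affymetrix Mouse Gene 1.0 ST arrays. The deposited values are log2 intensities that the authors made with RMA (background correction, normalization between arrays, 1 summary per probe set), per the submitters' processing notes. No version is named in these notes. Of 35557 probe sets, the platform annotation gave 1 symbol for 21789, several for 1621 and did not list 12147. Genes with several probe sets (999) were represented by the brightest, which left 19938 genes.

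Each gene was fitted with limma 3.58.1 (R 4.3.3; lmFit, then eBayes) with genotype as the only term. Tests were two-sided, adjusted p is Benjamini-Hochberg over all 19938 genes, and rose or fell means an adjusted p under 0.05. Intervals are 95% and not adjusted. The script was tested on simulated data. The precision is limited by 3 arrays per group.

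Members, gene lists and the naming rule were chosen with earlier results of these data known. Named are the members, list genes that passed or otherwise up to 3 with the lowest p, and 7 genes by name (Cdipt, Pi4ka, Plcg1, Plcg2, Vapa, Vapb, Agtrap). Also named are the 3 genes most and least like Pitpnc1, without the symbols passed over for likeness. Nol11, Psmd12 and Bptf were named after their values were seen. Dgkb, Dgkg, Hycc1 and Hycc2 of the lists were not analysed here. Deviations of same-numbered arrays from their group means had correlations of -0.01, -0.06 and 0.24. The labels do not say whether the numbers pair the cultures, and these values cannot settle it. Alternatives were a replicate block, 2 normalizations, a filter on dim genes, other priors, array weights, other choices of probe sets, an ordinary test and leaving out each array. Plots used matplotlib 3.10.9.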

Additional observations from a re-analysis of the deposited data

How the results depend on the processing

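Pitpnc1 kept its direction under all 15 alternatives and passed in 9. It did not pass when all probe sets were tested or in the ordinary test (difference -1.10 in both), nor without WT replicate 1, 2 or 3 or KO replicate 3. Without 1 array the difference ranged from -1.21 to -0.90, and the number of members that passed from 0 to 1. That number was also 0 with all probe sets and in the ordinary test. Over all genes, 164 passed as reported, 0 in the ordinary test and 4 of 35557 with all probe sets. Without WT replicate 1, 2 or 3, 15, 43 and 27 genes passed. Without KO replicate 1, 2 or 3, 103, 167 and 74 genes passed. The cause was not tested. With the replicate block Pitpnc1 had an adjusted p of 0.0362 and a difference of -1.10, and no member's call changed. Pitpna, Pitpnb, Pitpnm2 and Pitpnm3 passed in none of the alternatives that could be run. The sign of Pitpna turned in 5 of 15 and that of Pitpnm3 in 2 of 14, both around 0; Pitpnm3 could not be fitted with dim genes left out. Phosphoinositide list genes that passed numbered 2 with median centring, quantile normalization, dim genes left out, other priors or array weights. These were Osbpl5 and Sec14l1. The number was 1 (Sec14l1) with the replicate block or averaged probe sets, and 0 with all probe sets or in the ordinary test. Without 1 array it was 0 to 2 (Gramd1a, up, and Osbpl5 without KO replicate 2). The median of the lists stayed between -0.04 and -0.01. With 3 arrays per group, changes the size of the Pitpnm2 difference could not be told from 0 after adjustment.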
